A study of Capra hircus with 6 samples.

Results

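The Toll-like receptors of the goat (Capra hircus) were taken as the rows of the deposited count table named TLR1 to TLR10. All 10 were in the table, out of 24779 genes. The table holds peripheral blood mononuclear cells (PBMC), the lymphocytes, monocytes and dendritic cells of blood, with 3 libraries from kids on their does' milk as control (Doe 1 to Doe 3) and 3 from kids on replacer milk as test (Replacer 1 to Replacer 3). The labels name no age, breed or time on the feed. The design asks which genes differ between the feeds.

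Toll-like receptors are membrane proteins that bind conserved parts of microbes. One set sits at the cell surface and binds lipopeptides, lipopolysaccharide or flagellin, and another sits in endosomes and binds nucleic acids. Nearly all signal through the adaptor MYD88 to NF-kB and AP-1, TLR3 signals through TICAM1, and TLR4 uses both. In blood, monocytes and neutrophils are known for the surface receptors, and B cells and plasmacytoid dendritic cells for TLR7, TLR9 and TLR10. These roles are known mainly from human and mouse.

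The libraries were of 2 kinds that crossed the feeds. In Doe 1, Doe 2 and Replacer 1 the counts were those of blood cell transcripts, with a Spearman correlation of counts with gene span, introns included, of 0.374 to 0.387 across genes. In Doe 3, Replacer 2 and Replacer 3 it was 0.893 to 0.896, so that counts followed the length of the gene, and these are described apart at the end. Totals ran from 25023210 to 57204363 counts. The marker lists of T cells, B cells, NK cells and monocytes were detected in all 3 transcript-holding libraries, with no listed marker in the table at 0. The same held for the neutrophil, platelet and erythroid lists, so that detection says little about purity. In Doe 1, Doe 2 and Replacer 1 the platelet list summed to 521, 787 and 647 CPM. HBBC, of the erythroid list, stood at 1619, 1794 and 607 CPM. For the feeds this leaves 2 libraries against 1. The single replacer-milk library is assumed to vary like the doe-milk libraries, and the fit has 1 residual degree of freedom. In bulk samples such as these, fewer cells of a type and less RNA per cell cannot be told apart.

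No Toll-like receptor passed the test between the feeds. With edgeR's quasi-likelihood test on the transcript-holding libraries, 0 of the 10 receptors had an adjusted p below 0.05, and the smallest adjusted p was 0.811, for TLR9. Of all 17356 genes tested, 3 passed (0.0173%). They were LOC102181554 (log2 fold change −7.09), LOC102186914 (−3.42) and LOC108637289 (3.40), listed without a symbol and named here after their values were seen. At an unadjusted p below 0.05 stood 1 of the 10 receptors, with a higher value in replacer milk, and 5.35% of all genes, 2.13% higher and 3.22% lower. DESeq2 called 148 genes and limma voom 0, and neither called a receptor. Fold changes are replacer milk over doe milk throughout, with SE and 95% intervals from the edgeR fit.

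TLR9, the endosomal receptor of unmethylated CpG DNA, had the highest fitted value of the family. It stood at 4.49 CPM (each count relative to its library's total) in Doe 1, 3.39 CPM in Doe 2 and 9.08 CPM in Replacer 1, from 216, 194 and 471 counts. Replacer 1 lay above both doe-milk libraries, by 2.02-fold and 2.68-fold, while the doe-milk libraries differed from each other by 1.33-fold. The exact Poisson interval of Replacer 1, 8.27 to 9.93 CPM, did not overlap those of the doe-milk libraries, 3.91 to 5.14 CPM and 2.93 to 3.90 CPM. Such intervals cover counting error only. The fitted log2 fold change was 1.09 (SE 0.36, 95% interval 0.22 to 1.97, unadjusted p = 0.0224, edgeR adjusted p = 0.811), and 476 of the genes tested had a smaller p. A log2 fold change above 1 was found for 3.46% of all genes.

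For the other endosomal receptors, Replacer 1 lay between Doe 1 and Doe 2. TLR7, a receptor of single-stranded RNA, stood at 22.6 and 21.2 CPM under doe milk, against 22.1 CPM under replacer milk (log2 fold change −0.09, SE 0.22). TLR8, its neighbour on the X chromosome in RefSeq and also a receptor of single-stranded RNA, stood at 7.37 and 8.36 CPM against 8.05 CPM (−0.08, SE 0.32). TLR3, the receptor of double-stranded RNA, stood at 3.22 and 2.31 CPM against 2.52 CPM (−0.24, SE 0.47). The 95% intervals, −0.63 to 0.44 for TLR7 and −0.85 to 0.69 for TLR8, leave out a 2-fold change in either direction. That of TLR3, −1.38 to 0.90, does not. The summed CPM of the 4 endosomal receptors was 37.7, 35.2 and 41.8 in Doe 1, Doe 2 and Replacer 1.

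**Figure D1:**
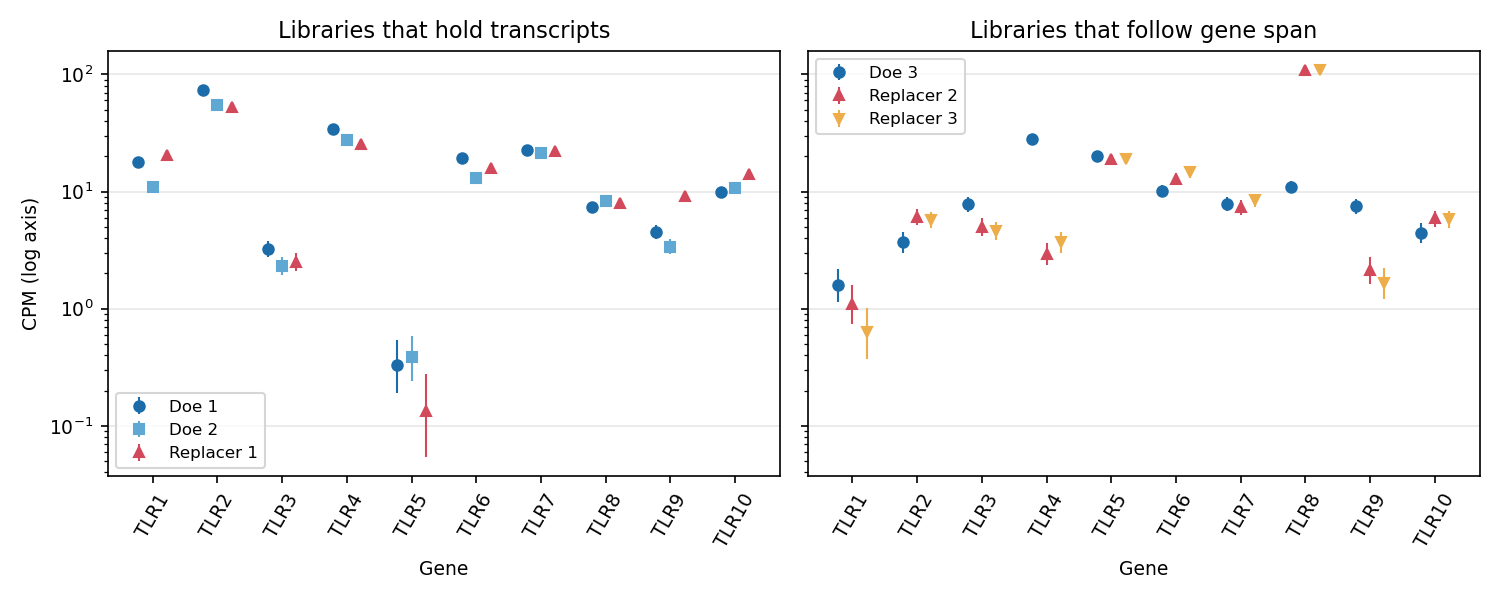
CPM on a log axis of the 10 Toll-like receptors in each library, with transcript-holding libraries on the left and span-following libraries on the right; bars are exact Poisson 95% intervals (counting error only). On the left TLR9 is at 9.08 CPM in replacer milk against 4.49 and 3.39 CPM in doe milk, and TLR5 is below 0.4 CPM in all 3 libraries; on the right TLR8 stands at 108 and 109 CPM in Replacer 2 and Replacer 3 and at 11.0 CPM in Doe 3.

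Among the surface receptors, TLR2 and TLR4 had lower values in replacer milk and TLR1 and TLR10 higher ones, none of which passed. TLR2, which binds bacterial lipopeptides as a dimer, stood at 73.8 and 54.8 CPM under doe milk, against 52.7 CPM under replacer milk (log2 fold change −0.40, SE 0.25, edgeR adjusted p = 0.979). Replacer 1 lay below both doe-milk libraries but only just below Doe 2. TLR4, the receptor of lipopolysaccharide, stood at 34.4 and 27.3 CPM against 25.3 CPM (−0.40, SE 0.24), in the same order. For both genes the gap to Doe 2 was smaller than the gap between the doe-milk libraries, which differed by 1.35-fold for TLR2 and by 1.26-fold for TLR4.

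The partners of TLR2 had fitted values of opposite sign, but both 95% intervals included 0 and neither direction was detectable. TLR1, with which it binds triacylated lipopeptides, stood at 17.9 and 11.0 CPM under doe milk, against 20.5 CPM under replacer milk (log2 fold change 0.40, SE 0.34). TLR6, with which it binds diacylated lipopeptides, stood at 19.4 and 12.9 CPM against 15.9 CPM (−0.13, SE 0.31). TLR1 was thus highest in Replacer 1, and TLR6 in Doe 1. The doe-milk libraries differed by 1.63-fold for TLR1 and 1.50-fold for TLR6, the widest gaps between them within the family. TLR10, a relative of both whose ligands are less settled, stood at 9.92 and 10.8 CPM against 14.2 CPM (0.35, SE 0.27). Its doe-milk libraries were close, and Replacer 1 lay above them by 1.43-fold and 1.32-fold. TLR10 and TLR1 are adjacent protein-coding genes in the ARS1.2 assembly of RefSeq, with TLR6 beyond 1 further gene, and their sequences are alike, so that reads may be shared or lost among the 3.

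TLR5, the flagellin receptor, was close to the limit of detection in the transcript-holding libraries. It had 16 and 22 counts in doe milk and 7 counts in replacer milk, or 0.333, 0.385 and 0.135 CPM. The exact Poisson interval of Replacer 1, 0.0542 to 0.278 CPM, overlapped those of both doe-milk libraries. The fitted log2 fold change of −1.51 (SE 0.88) had a 95% interval of −3.66 to 0.64. No direction was detectable at these counts. A log2 fold change below −1 was found for 6.91% of all genes.

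The order of Replacer 1 relative to both doe-milk libraries was near that of all genes. It lay above both for 3 receptors (TLR1, TLR9 and TLR10), below both for 3 (TLR2, TLR4 and TLR5) and between them for 4, so that 6 of 10 lay outside. Over all genes tested, 70.7% lay outside, 46.9% above and 23.8% below. The median log2 ratio of CPM over all genes was 0.11. With TMM scaling, which removes this shift, 3 receptors lay above, and 4 below with TLR7 added, against 34.4% and 33.2% of all genes (67.5% outside). The fitted log2 fold changes had a median of −0.11 over the 10 receptors and −0.01 over all genes. The doe-milk libraries themselves differed by a median of 0.37 on the log2 scale over the receptors and 0.28 over all genes. Of the receptors, 7 of 10 were higher in Doe 1 than in Doe 2, as were 51.4% of all genes tested. For 5 receptors (TLR4, TLR6, TLR7, TLR8 and TLR10) the 95% interval lay within a 2-fold change either way. The share of all genes with such an interval is not given here. With 1 replacer-milk library, these intervals hold no spread between replacer-milk libraries.

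**Figure D2:**
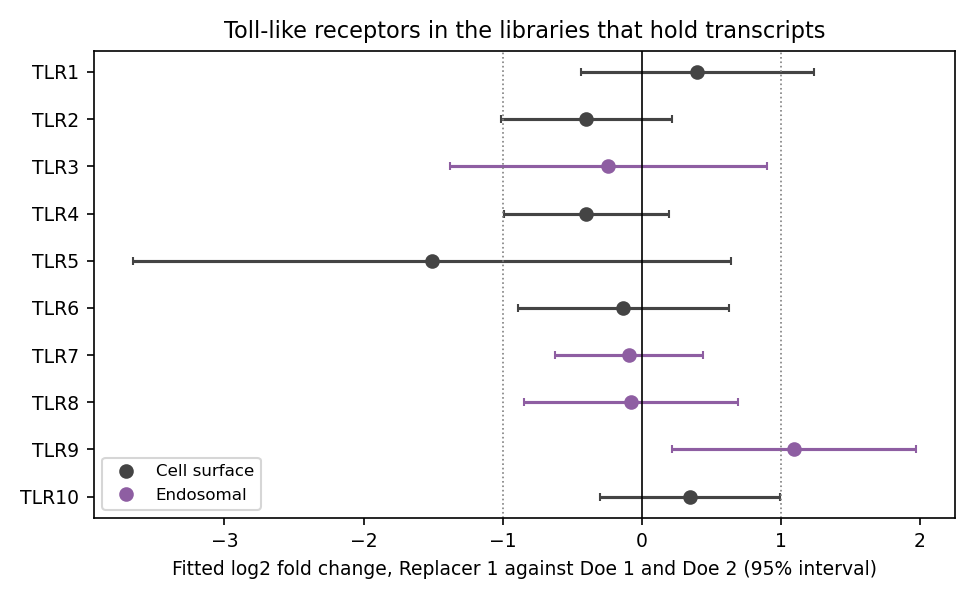
Fitted log2 fold change (horizontal axis) of each Toll-like receptor in Replacer 1 against Doe 1 and Doe 2, with edgeR 95% intervals; dotted lines mark a 2-fold change either way. Of the 10 intervals, that of TLR9 (0.22 to 1.97) leaves out 0, and that of TLR5 is the widest.

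Summed markers of cell types known to carry these receptors varied between the libraries, but in none of these lists did a marker pass the test. The summed CPM of the 6 surface receptors was 156, 117 and 129 in Doe 1, Doe 2 and Replacer 1. The neutrophil list, with 11 of 15 markers in the table, summed to 866, 477 and 326 CPM. Negative fold changes were found for 9 of the 11, and for 50.6% of all genes. The monocyte list (7 of 10 markers) summed to 591, 661 and 777 CPM. Doe 1, which was highest for TLR2, TLR4 and TLR6, was thus highest for neutrophil markers and lowest for monocyte markers. The B cell list (10 of 10 markers) summed to 2666, 2581 and 2920 CPM, the plasmacytoid dendritic cell list (6 of 8) to 617, 560 and 540 CPM, and the conventional dendritic cell list (7 of 9) to 101, 39.3 and 46.2 CPM. The summed B cell markers were highest in Replacer 1, as were TLR9 and TLR10, but 5 of the 10 B cell markers had positive and 5 negative fold changes (median 0.02). The part of cell composition in the receptor values was not tested.

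Of the genes that work with the receptors, 0 passed as well. Of 79 genes in 7 lists (co-receptors, folding and cleavage, adaptors, kinases and ligases, transcription factors, negative regulators, target genes), 75 were tested. At an unadjusted p below 0.05 stood 14 of them (18.7%), 11 lower and 3 higher in replacer milk, where 5.35% of all genes did. These 14 lay mostly among target genes (5 lower and 2 higher of 11 tested) and negative regulators (3 lower of 13). Transcription factors had 1 each way, and the folding and adaptor lists 1 lower each. None of the 7 co-receptors or 18 kinases and ligases tested was among them. Genes of one pathway in the same 3 libraries are not independent, and the lists were chosen with earlier results of these data known. The smallest adjusted p was 0.511.

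The co-receptors of TLR4 had fold changes within 1 SE of 0 in either direction. CD14, which hands lipopolysaccharide to TLR4, stood at 120 and 101 CPM under doe milk, against 137 CPM under replacer milk (log2 fold change 0.20, SE 0.21). LY96, the lipopolysaccharide-binding subunit also called MD-2, stood at 30.1 and 30.6 CPM against 30.3 CPM (−0.11, SE 0.21). CD14 was thus highest in the library where TLR4 was lowest. CD180, a B cell relative of TLR4, stood at 33.7 and 28.4 CPM against 47.0 CPM (0.49, SE 0.22), while its partner LY86 stood at 105 and 116 CPM against 92.1 CPM (−0.37, SE 0.20). LBP, which carries lipopolysaccharide in plasma, was under 1 CPM in all 3 libraries. HMGB1, a nuclear protein that engages the receptors when released, had −0.28 (SE 0.19). Of 7 tested members of this list, 2 had positive and 5 negative fold changes.

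UNC93B1, which carries the endosomal receptors to endosomes, stood at 118, 124 and 128 CPM in Doe 1, Doe 2 and Replacer 1 (log2 fold change −0.03, SE 0.19). SLC15A4, an endolysosomal transporter needed for TLR7 and TLR9 signalling, stood at 63.2 and 65.7 CPM against 93.5 CPM (0.43, SE 0.19), and CNPY3, a chaperone of the receptors, at 73.9 and 73.4 CPM against 101 CPM (0.35, SE 0.19). For both, Replacer 1 lay well outside a narrow doe-milk pair, yet neither passed (edgeR adjusted p = 0.963 and 0.979). The protease legumain, LGMN, which can cleave endosomal receptors, stood at 157 and 178 CPM against 125 CPM (−0.53, SE 0.20), and the cathepsin CTSL stayed below 0.5 CPM in all 3 libraries. Fold changes were positive for 6 of 11 members of this list.

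MYD88 had the lowest fold change of the 6 adaptors. It stood at 108 and 73.6 CPM under doe milk, against 59.5 CPM under replacer milk (log2 fold change −0.72, SE 0.28, unadjusted p = 0.0460, edgeR adjusted p = 0.921). It lay below both doe-milk libraries, which differed more from each other than Doe 2 did from Replacer 1. SARM1, an NAD-degrading relative of the adaptors, had 0.46 (SE 0.22), TICAM2, the bridge from TLR4 to TICAM1, had 0.39 (SE 0.29), and PIK3AP1, a link to PI3K signalling, had 0.12 (SE 0.19). Below the adaptors, none of 18 kinases and ligases reached an unadjusted p of 0.05, and their fold changes ran from −0.30 to 0.37. IRAK4, the first kinase after MYD88, stood at 23.6 and 24.5 CPM against 22.0 CPM. The ubiquitin-conjugating enzyme UBE2N had −0.30 (SE 0.22), TAB3, a partner of the kinase TAK1, had 0.19 (SE 0.22), and the ligase PELI2 had 0.37 (SE 0.33).

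**Figure D3:**
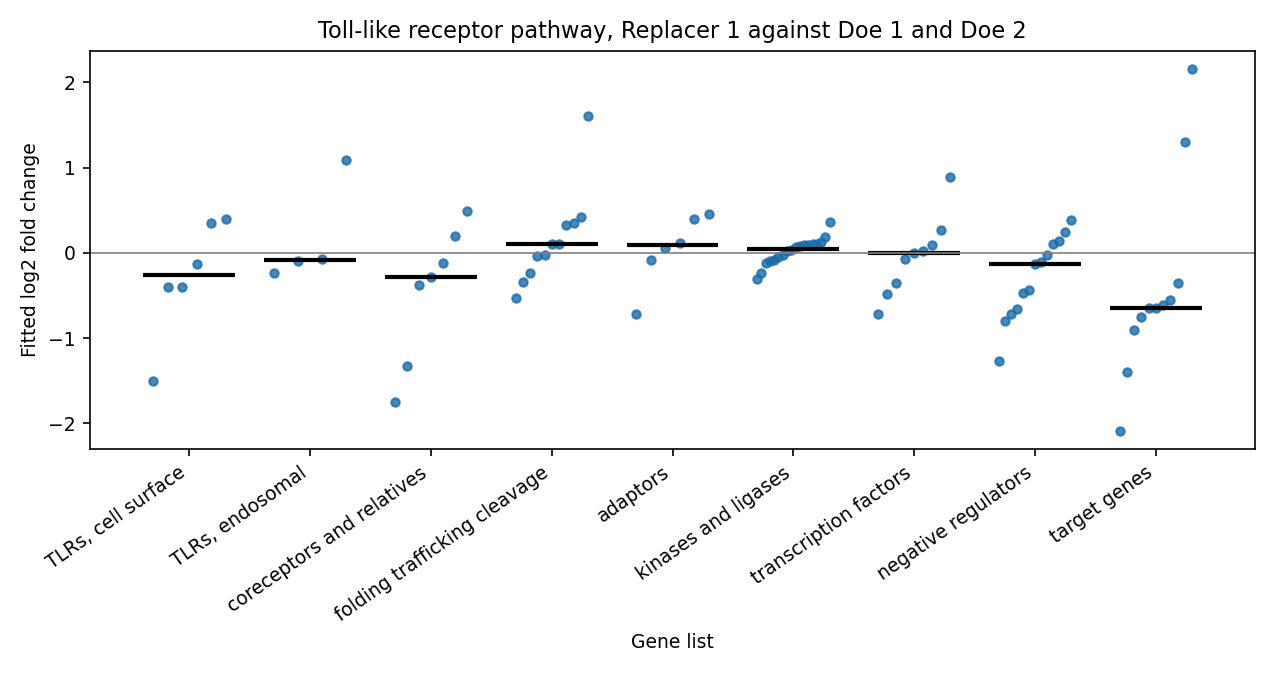
Fitted log2 fold change (vertical axis) in Replacer 1 against Doe 1 and Doe 2 for each tested gene (points) of the receptor and pathway lists; horizontal bars are list medians. Medians lie between −0.65 (target genes) and 0.10 (folding, trafficking and cleavage), and the 18 kinases and ligases span the narrowest range.

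Transcription factors at the end of the pathway went both ways. IRF8, a factor of B cells, monocytes and dendritic cells, stood at 68.2 and 65.5 CPM under doe milk, against 134 CPM under replacer milk (log2 fold change 0.89, SE 0.19, unadjusted p = 0.00306, edgeR adjusted p = 0.52). The doe-milk libraries were close and Replacer 1 stood at 2.01 times their mean. The AP-1 subunits FOS (−0.71, SE 0.22) and JUN (−0.48, SE 0.21) and IRF7, which drives interferon genes after TLR7 and TLR9 (−0.36, SE 0.25), had lower values. Of the 9 members, 4 were positive and 5 negative, with a median of −0.0011.

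Negative regulators and target genes had mostly lower values in replacer milk. Of 13 negative regulators 9 had negative fold changes (median −0.13), and of 11 target genes 9 did (median −0.65), where 50.6% of all genes did. The regulators with the smallest p were NFKBIA, the inhibitor of NF-kB (−1.27, SE 0.27, edgeR adjusted p = 0.536), SOCS3, a brake on cytokine signalling (−0.80, SE 0.22), the phosphatase DUSP1 (−0.66, SE 0.23) and the ubiquitin-editing TNFAIP3 (−0.47, SE 0.21). The call of NFKBIA depended on the method, with an adjusted p of 0.00566 in DESeq2 and of 0.0332 in edgeR without a filter on low counts. SOCS3 stood at 71.0 and 62.1 CPM against 41.4 CPM, below both doe-milk libraries.

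Of the target genes, CXCL10, a chemokine induced by interferon and by TLR3 and TLR4, stood at 13.4 CPM in each doe-milk library and at 5.47 CPM under replacer milk (log2 fold change −1.40, SE 0.29, edgeR adjusted p = 0.511, and adjusted p = 0.0331 in DESeq2). PTGS2, the inducible cyclooxygenase, had −0.65 (SE 0.20). The chemokine CCL20 (1.30, SE 0.42) and IL12B, a subunit of interleukin 12 and 23 (2.16, SE 0.67), were the 2 targets with higher values, both at under 5 CPM in all 3 libraries. The value of IL12B was 1.58 without Doe 1 and 2.97 without Doe 2. Named after their values were seen, the cytokines TNF (−0.91), IL1A (−0.76) and IL6 (−2.08) also had an unadjusted p below 0.05. For IL6 the value was −1.33 without Doe 1. Target genes and neutrophil markers were thus both mostly lower in Replacer 1, and the part of one in the other was not tested.

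Over all 6 libraries, as labelled, 0 of 10 receptors and 0 of 21431 genes (0%) passed edgeR's test between the feeds, and 1 receptor and 123 genes (0.574%) had an unadjusted p below 0.05. The receptor was TLR8, at 7.37, 8.36 and 11.0 CPM under doe milk, against 8.05, 108 and 109 CPM under replacer milk (log2 fold change 2.40, SE 0.91, unadjusted p = 0.0389, edgeR adjusted p = 0.987). Its Replacer 1 lay among the doe-milk libraries. At the other end stood TLR4, at 34.4, 27.3 and 27.9 CPM against 25.3, 2.95 and 3.71 CPM (−1.46, SE 1.30). Of the libraries that follow gene span, 2 are of replacer milk and 1 is of doe milk. With library kind as a term, TLR8 was at 1.70 (unadjusted p = 0.140, edgeR adjusted p = 0.432) and TLR4 at −1.62 (unadjusted p = 0.0327, edgeR adjusted p = 0.402).

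In the span-following libraries most receptors stood within the range of other genes per kb of gene span. With spans from the ARS1.2 assembly, 9 of the 10 lay between the 5th and 95th percentiles of 20564 protein-coding genes in all 3 libraries. By definition that band holds most of these genes in each library, so that the count says little about the receptors. The median over these genes was 0.774, 0.645 and 0.648 CPM per kb in Doe 3, Replacer 2 and Replacer 3. TLR5, which the transcript-holding libraries hardly held, had 500, 516 and 511 counts, or 0.814, 0.775 and 0.780 CPM per kb. TLR2, at 73.8 and 54.8 CPM in Doe 1 and Doe 2, stood at 3.72, 6.12 and 5.73 CPM here, or 0.323, 0.531 and 0.498 CPM per kb. Per kb of gene span, TLR5 thus stood above TLR2 in all 3 libraries.

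**Figure D4:**
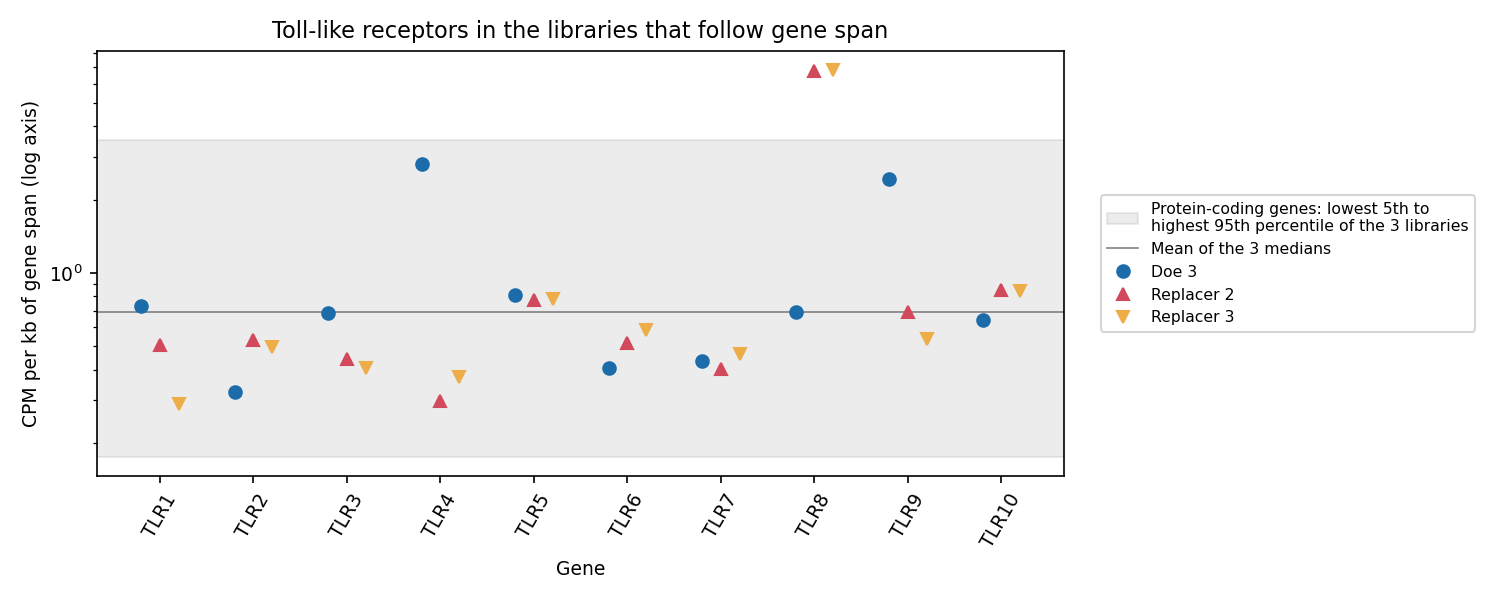
CPM per kb of gene span (log axis) of the Toll-like receptors in the span-following libraries; the grey band runs from the lowest 5th to the highest 95th percentile of protein-coding genes over these libraries, and the line is the mean of their medians. TLR8 in Replacer 2 and Replacer 3 lies above the band at 6.78 and 6.82 CPM per kb, and TLR4 and TLR9 are high in Doe 3.

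In these libraries 3 of the 10 receptors differed by over 2-fold between Doe 3 and the mean of Replacer 2 and Replacer 3, where 40% of 21786 genes did (13.7% higher and 26.3% lower). They were compared by fold only, and the difference was not tested. TLR8 was 9.88-fold higher, at 6.78 and 6.82 CPM per kb against 0.689, with Replacer 2 and Replacer 3 within 1.01-fold of each other. Its neighbour TLR7 stayed at 0.404 and 0.463 against 0.434 CPM per kb. The non-coding LOC108634354, which overlaps TLR8 in RefSeq and shared its pattern at 4.80 and 4.89 against 0.634 CPM per kb, cannot be told apart from it without a stated strand setting.

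TLR4 and TLR9 went the opposite way. TLR4 had 697 counts in Doe 3 and 80 and 99 in Replacer 2 and Replacer 3, or 2.81 against 0.298 and 0.375 CPM per kb, 8.37-fold lower in replacer milk. TLR9 had 188 against 58 and 44 counts, or 2.43 against 0.692 and 0.534 CPM per kb, 3.97-fold lower in replacer milk. In the transcript-holding libraries TLR9 had the opposite direction. The 7 other receptors were within 2-fold. Just inside stood TLR1 at 1.83-fold lower, whose counts of 40, 30 and 17 were the fewest of the family here.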

How the data were processed

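The values deposited by the authors are whole-number counts of reads, not normalized, in 1 table of 6 libraries. Per the labels' protocols, the RNA came from a TRIzol extraction and the library kit was NEBNext Ultra II RNA. The submitters' processing notes name featureCounts 2.0.0, STAR 2.7.10a and fastp 0.22.0, among others. Strand setting, build, annotation and parameters: not given in the sources used here, so no coordinates are printed. Whether replicates are separate animals is given only as biological replicate. The p-values set a difference against the spread between these libraries. In the transcript-holding libraries that spread is between Doe 1 and Doe 2 only, shared in part across genes.

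CPM divide each count by its library's total, on the usual scale. Library kind was set by a Spearman correlation of counts with RefSeq gene span above 0.6 (span known for 92.9% of genes). After filterByExpr and TMM scaling, genes were tested two-sided in edgeR 4.0.16 (R 4.3.3) by its quasi-likelihood test with robust dispersions, with Benjamini-Hochberg adjustment over all genes. SE is the log2 fold change over the square root of F, and intervals use the test's degrees of freedom. DESeq2 1.42.0 and voom in limma 3.58.1 were alternatives. The fits were also run on simulated data, and no statement here rests on that run. In the span-following libraries, genes with at least 30 counts in all were compared by fold. Transcript lengths were not used here, so receptors are not ranked by transcript level. Named genes are the receptors and, for each pathway list, the 4 members with the smallest p, with CD14, LY96 and UNC93B1 added by role. The receptors, lists and alternatives were chosen with earlier results of these data known.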

Additional observations from a re-analysis of the deposited data

How the results depend on the processing

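No receptor was called in the transcript-holding libraries or over all 6 under any alternative run. In the transcript-holding libraries the receptors kept their direction under other scaling, filters, dispersions, DESeq2 and voom. The fold change of TLR9 ran from 1.08 to 1.11 (adjusted p 0.457 to 0.814) and without Doe 1 came to 1.29 and without Doe 2 to 0.89, values with no test. Without Doe 1, TLR1 was at 0.79, TLR3 at 0.01 and TLR6 at 0.18. Without Doe 2, TLR1 was at 0.08 and TLR8 at 0.02. At a minimum of 1 CPM in every library TLR5 was not tested. The count of all genes called, 3 in the main fit, was 5 with RLE and with upper quartile scaling, 90 without a filter, 0 at 1 CPM, 148 in DESeq2, 0 in voom and 1 without robust dispersions; the cause was not tested. Over all 6 libraries it was 1 in DESeq2 and 1 with library kind as a term, and 0 without any 1 library.

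Receptors outside both doe-milk libraries numbered 7 with TMM or RLE scaling against 6, and with 1 doe-milk library left out every gene lies outside the other. In the span-following libraries 4 receptors, TLR1 added, passed 2-fold without Replacer 2, and 3 did without Replacer 3 and with folds centred on the median gene, alternatives chosen after seeing the data. With the replicate number as a block over all 6 libraries, 0 genes and 0 receptors were called. Same-numbered libraries deviated together for numbers 1 and 3 (correlation 0.901 and 0.915) and oppositely for number 2 (−0.893). These signs follow library kind. Differently numbered libraries of the same kind also deviated together, at 0.897 for Doe 2 with Replacer 1 and 0.914 for Doe 3 with Replacer 2. Whether the numbers pair the libraries thus cannot be told from these correlations. The values of TLR5 and of the target genes at low CPM rest on low counts.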
